A study of Mus musculus with 17 samples.

Results

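The nuclear-encoded subunits of mitochondrial respiratory chain complexes I to IV were followed in RNA sequencing libraries of mouse primordial germ cells, from which eggs and sperm later descend. Members were chosen by gene symbol, as rows named Ndufa, Ndufb, Ndufc, Ndufs or Ndufv with a number, Uqcr, Sdha to Sdhd, or Cox4 to Cox8, and no expression value entered the choice. This gave 67 of the 23361 rows of the tables. Complex I has 37 members, complex II has 4, complex III has 8 and complex IV has 18.

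The respiratory chain carries electrons from NADH and succinate to oxygen and pumps protons across the inner mitochondrial membrane, and ATP synthase uses the resulting gradient. Complex I (NADH dehydrogenase, Nduf genes) and complex II (succinate dehydrogenase, Sdh genes) feed electrons to complex III (cytochrome bc1, Uqcr genes), and complex IV (cytochrome c oxidase, Cox genes) passes them to oxygen. Complex II is made from nuclear genes only, while complexes I, III and IV also hold subunits from the mitochondrial genome. Those mitochondrial subunits were not analysed here, so every value below describes nuclear transcripts. Several complex IV subunits exist as paralogues used in different tissues, among them Cox6b2, which is known from the testis, and Cox7a1, which is known from heart and skeletal muscle.

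The 17 libraries came from purified germ cells at embryonic days E11.5, with sex not stated, and E13.5, separated by sex. At E11.5 there were 3 libraries without irradiation (noIR) and 2 with ionizing radiation (IR). At E13.5 there were 3 libraries in each of FC (female, no irradiation), FIR (female, ionizing radiation), MC and MIR (male). The male labels conflict: titles and conditions describe the MIR libraries as untreated and the MC libraries as irradiated, while the codes follow the opposite pattern of the female codes FC and FIR. The male groups are therefore named by code, and male differences are MIR minus MC. If the titles were right, the sign of every male irradiation difference would be opposite. Strain, radiation dose, the interval after irradiation, the method of purification and the origin of replicates are not stated in the labels, so p-values measure the spread between these samples, which may be technical.

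Values are FPKM, fragments scaled to transcript length and library depth, so levels of different genes can be set side by side. The spacing of the lowest values gave an estimated depth of 11500000 to 19500000 fragments per library at E11.5 and 13600000 to 26300000 at E13.5. Germ cell markers were abundant in every group, and summed over 14 genes they lay between 4501 and 4624 FPKM in FC, 2323 and 3518 in FIR, 4468 and 4921 in MC, and 1637 and 3116 in MIR. Markers of gonadal supporting cells (6 genes summed) went the other way, with 5.71 to 6.01 FPKM in FC, 116 to 285 in FIR, 6.65 to 10.8 in MC and 104 to 314 in MIR. The 8 Sertoli cell markers summed to 75.2 to 127 FPKM in MC and 1242 to 4230 in MIR, and the 9 pregranulosa markers to 6.28 to 7.23 in FC and at least 102 in FIR. Hsd17b3, a Sertoli marker, was at 0 throughout FC and FIR and Dhh throughout FC. No other marker of the lists named so far was at 0 throughout an E13.5 group. All 6 supporting cell markers rose in females and 5 of 6 in males, while 7 of 14 germ cell markers fell in females and 12 of 14 in males. Macrophage markers were called higher in 9 of 9 in females (10.6 to 15.5 FPKM summed in FC, 46.4 to 73.9 in FIR) and in 8 of 9 in males (5.06 to 6.57 in MC, 12.5 to 28.0 in MIR). Mesenchyme and pericyte markers were higher in 3 of 9 in females and 6 of 9 in males, and Leydig cell markers in 3 of 4 in each sex. Summed endothelial markers fell instead, from at least 108 FPKM in FC to at most 77.1 in FIR. In males they fell from at least 81.4 in MC to at most 72.0 in MIR. In each sex 1 of 3 endothelial markers tested was called higher and 1 lower. Erythroid markers summed to 33.0 to 51.2 FPKM in FC and 6.12 to 18.4 in FIR, with 2 of 5 called lower. In males their sums overlapped (8.26 to 105 in MC, 31.0 to 43.0 in MIR), with 1 of 5 called higher. Apart from the erythroid markers in males, these summed marker levels moved up or down together with the irradiation codes at E13.5. The part of the marker levels in the differences between FIR and FC and between MIR and MC was not tested. In bulk libraries, fewer cells of a type and less RNA per cell cannot be told apart.

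Respiratory chain transcripts were abundant in germ cells of both days. Summed over the 67 members, the level was 23430 ± 4000 FPKM (SD, n = 3) in E11.5 noIR and 20110 ± 170 (n = 2) in E11.5 IR. At E13.5 it was 15027 ± 352 in FC, 15437 ± 2229 in FIR, 14397 ± 1406 in MC and 12537 ± 604 in MIR (n = 3 each). The members made up 2.83% of all FPKM in E11.5 noIR, 2.75% in E11.5 IR, 2.44% in FC, 2.66% in FIR, 2.20% in MC and 2.25% in MIR. Thus the summed level was lower in MIR than in MC while the share of all FPKM was nearly equal in both. The days stand in separately prepared tables and were not tested against each other.

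Complexes I and IV held most of the signal. In FC, complex I summed to 6241 ± 187 FPKM, complex II to 488 ± 17.2, complex III to 2235 ± 73.5 and complex IV to 6063 ± 76.8 (n = 3). In MC the sums were 6155 ± 597, 492 ± 11.6, 2096 ± 266 and 5652 ± 560, close to FC in each complex. The 3 MIR libraries gave 5313, 5521 and 5676 FPKM for complex I, against 6681, 5506 and 6279 in MC. They overlapped only through MC replicate 2. In summed FPKM, complex II separated the male groups without overlap, with 425, 401 and 440 in MIR and 479, 500.0 and 497 in MC. As a share of all FPKM it overlapped, at 0.0706% to 0.079% in MIR and 0.071% to 0.08% in MC. The complex I share was 0.973% to 1.0% in MIR and 0.881% to 0.991% in MC. Within FIR, replicate 1 was low for every complex, for instance 5062 FPKM for complex IV against 6535 and 6872 in replicates 2 and 3.

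**Figure D1:**
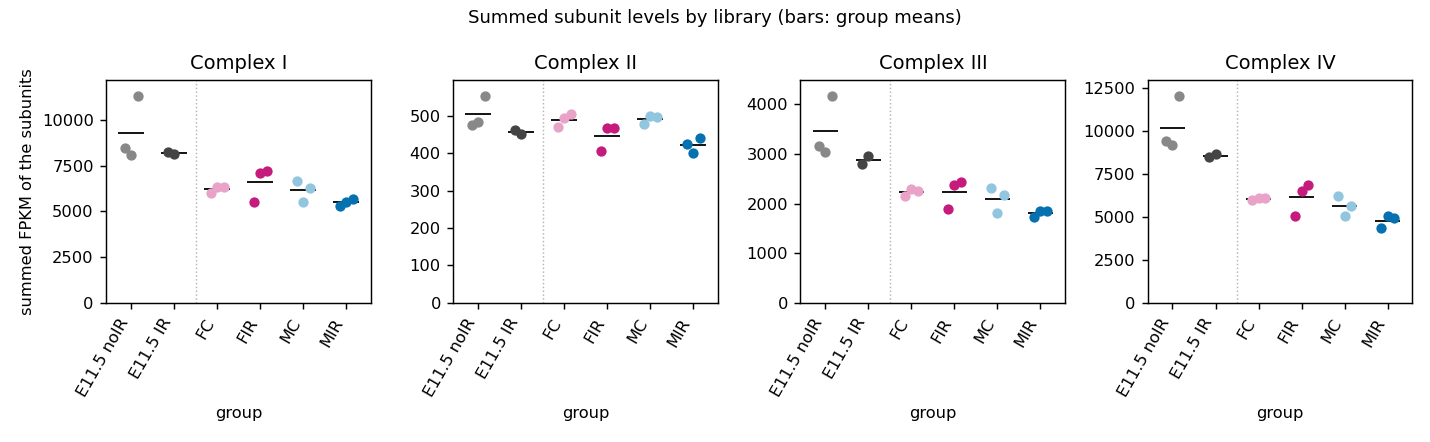
Summed FPKM of the subunits of each complex (y axes, starting at 0) in each library, by group on the x axes; points are libraries, bars are group means and the dotted line separates the days. Complexes I and IV stand highest, E11.5 noIR replicate 3 lies above its group in every complex, and FIR replicate 1 lies below its group.

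The level of the leading subunit differed widely between complexes at E13.5. Cox7c, a small membrane subunit of complex IV, was the highest of all, at 1302, 1303 and 1355 FPKM in FC and 1371, 1109 and 1291 in MC. Ndufa4, a small protein named as a complex I subunit and now usually counted with complex IV, led the Nduf genes at 552 ± 10.7 FPKM in FC and 606 ± 51.1 in MC. In complex III, Uqcrb, a ubiquinone-binding protein, led with 756 ± 32.8 FPKM in FC and 605 ± 75.3 in MC. Sdha, the flavoprotein that oxidizes succinate, led complex II with 171 ± 3.02 FPKM in FC and 170 ± 15.6 in MC. Members had short transcripts, with a median length of 875 bases over the 63 tested at E13.5 against 3039 bases over 12057 tested genes with a known length. Many respiratory chain genes have processed pseudogenes, and how reads shared with such copies were counted is not stated, so members with near-identical copies are uncertain.

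A filter on low values (FPKM of 1 or more in 2 of the E11.5 libraries or in 3 of the E13.5 libraries) left 64 members for testing at E11.5 and 63 at E13.5. Cox4i2, Cox6a2 and Cox8b, paralogues of complex IV subunits known from lung (Cox4i2) or striated muscle (Cox6a2 and Cox8b), failed it on both days and did not exceed 0.761 FPKM in any library. Ndufs5, an accessory subunit of complex I, passed only at E11.5. Its level was 78.9, 94.1 and 81.1 FPKM in E11.5 noIR and 105.5 and 133 in E11.5 IR, but between 0.00113 and 0.0449 in 10 of the 12 libraries at E13.5. The exceptions were FIR replicate 1 with 14.5 FPKM and FIR replicate 2 with 42.5. In the 10 low libraries these values correspond to less than 1 estimated fragment each, with a highest estimate of 0.662. Of 18 rows with an E11.5 mean above 50 FPKM and an E13.5 median under 0.1, Ndufs5 was the only protein-coding gene. Its E13.5 values are therefore given without a comparison.

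The first comparison asked whether irradiation changed respiratory chain transcripts at E11.5, and no member passed the test. Tests were made with limma on log2(FPKM + 1), with p-values adjusted by Benjamini-Hochberg over all genes tested and called under 0.05. Of 11315 genes, 2 were called, a background of 0.0177% (0.00884% higher and 0.00884% lower), and 0 of 64 members. Before adjustment, 358 genes (3.16%) had a p under 0.05, among them 2 members, Ndufs5, higher by 0.48 on the log2 scale in IR, and Cox7a2, lower with a log2 difference of -0.39. Both had an adjusted p of 0.974 in limma.

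Most members nevertheless lay slightly lower in the IR libraries. The median log2 difference of the members was -0.17 against -0.02 over all genes, and 12 of 64 lay above 0. In 13 of 64 members, every IR library lay below every noIR library, against 9.51% of all genes, and in 2 members the reverse held, against 8.57%. Cox6b1, a subunit at the interface of the cytochrome c oxidase dimer, measured 564, 653 and 900 FPKM in noIR and 454 and 539 in IR, without overlap. Sdhd, a membrane anchor of complex II, measured 109, 121 and 128 FPKM in noIR and 86.3 and 102 in IR. One library carried much of this difference: noIR replicate 3 was the highest of the 5 libraries in 53 of 64 members, and without it the median of the members was -0.03. After removal of each library's trend with transcript length the median was 0.01.

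Single libraries stood apart at E13.5 as well. FIR replicate 1 was the lowest of its group in 58 of 63 members, with a median deviation of -0.15 on the log2 scale from each gene's mean over the day, against 0.19 and 0.23 in FIR replicates 2 and 3. That library also had the highest supporting cell markers of its group (285 FPKM against 122 and 116) and the lowest germ cell markers (2323 against 3490 and 3518). In MC, replicate 1 was the highest in 46 of 63 members and replicate 2 the lowest in 51. In MIR, replicate 1 was the lowest in 38, and it had the lowest germ cell markers (1637 FPKM against 3116 and 2164) and the highest Sertoli markers (4230 against 1242 and 3856). The medians over all genes deviated by no more than 0.02 in any of the 17 libraries. As a share of all FPKM the positions differed. FIR replicate 1 stood at 2.41%, within the 2.39% to 2.47% of FC, and FIR replicates 2 and 3 at 2.79% each. MIR replicate 1 stood at 2.2%, against 2.26% and 2.28% in MIR replicates 2 and 3. Whether cell composition accounts for these positions was not tested.

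**Figure D2:**
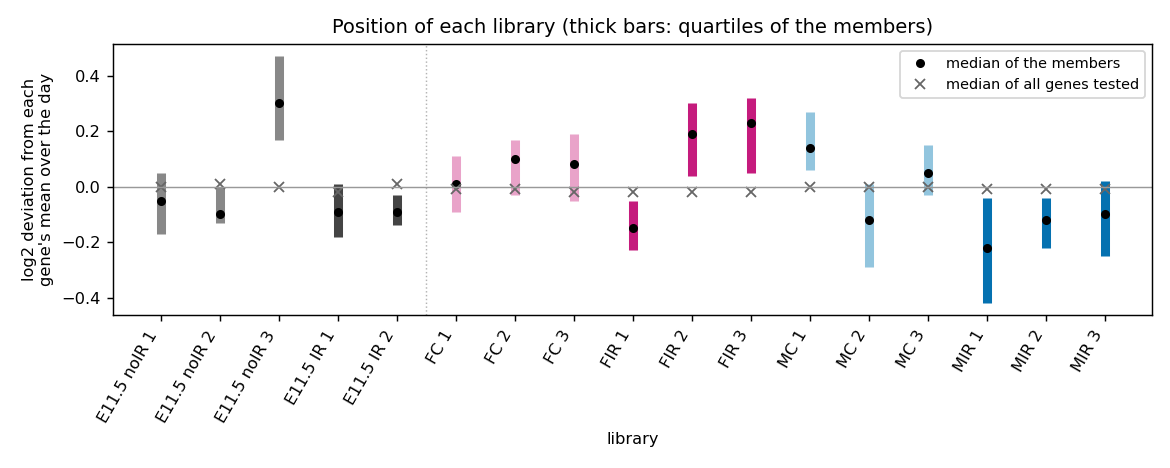
Median log2 deviation of the members from each gene's mean over the libraries of the same day (y axis) in each library (x axis); thick bars span the quartiles of the members, dots are their medians and crosses are medians over all genes tested. E11.5 noIR replicate 3 stands at 0.30, FIR replicate 1 at -0.15 and MIR replicate 1 at -0.22, while the crosses stay within 0.02 of 0.

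In female germ cells at E13.5, few members differed between FIR and FC. Cox6b2 was the member that rose most, Ndufa3, Uqcr10, Ndufa4 and Cox7a2l rose less, and Sdha, Ndufs1 and Uqcrc2 fell. That is 8 of 63 members, 5 higher and 3 lower, where 44.8% of 12852 genes were called, 21.8% higher and 22.9% lower. In 12 of 63 members the groups did not overlap, against 61.6% of genes, with 8 higher (29.3% of genes) and 4 lower (32.3% of genes). Before adjustment, 10 members had a p under 0.05, against 53% of genes. The share of members called was below that of all genes. Their median log2 difference was 0.01, against -0.03 over all genes. By complex the medians were 0.05 for complex I, -0.03 for complex II, 0.01 for complex III and -0.01 for complex IV.

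Scaling bore on the female direction. With quantile normalization 21 members were called, all higher, with a median of 0.19, which was 0.30 above the median of all genes. Removing each library's length trend gave 2 higher and 11 lower with a median of -0.11, median scaling gave 2 higher and 2 lower, and weighting libraries by their quality gave 25 higher and 6 lower. Without FIR replicate 1, 9 members were higher and 1 lower, and the median was 0.13. The small shift of the whole set in females therefore had no stable sign across these settings.

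**Figure D3:**
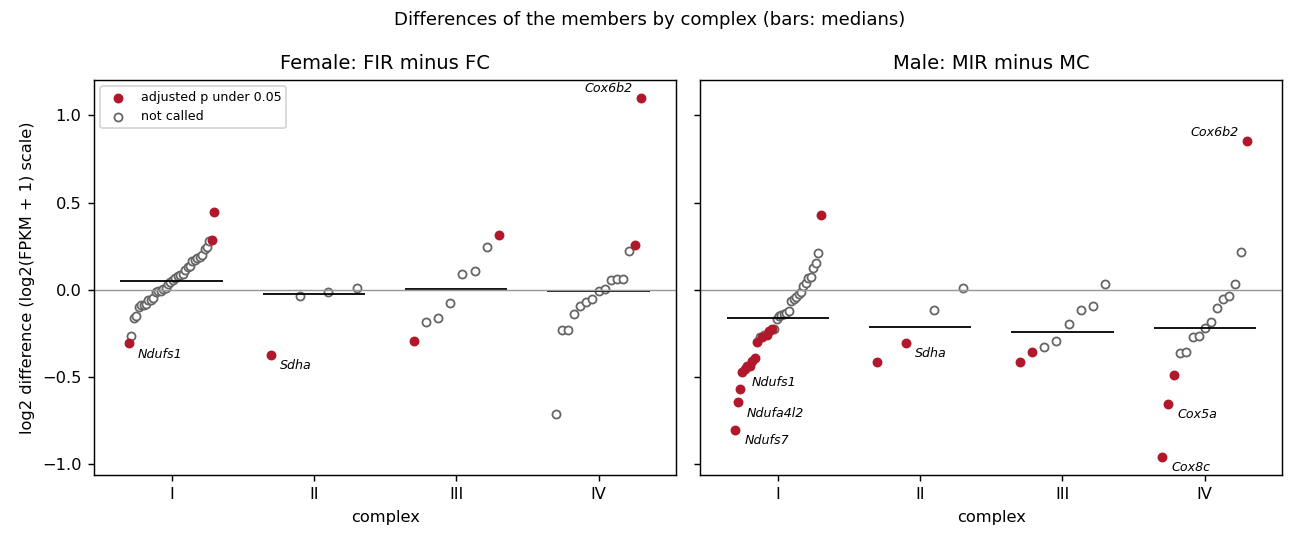
Log2 difference on the log2(FPKM + 1) scale (y axis) of each member tested at E13.5, by complex (x axis), for FIR minus FC and MIR minus MC; filled points passed an adjusted p of 0.05 in limma, open points did not, and bars are medians per complex. Called members lie on both sides of 0 in females (5 higher, 3 lower) and mostly below 0 in males (2 higher, 21 lower).

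Cox6b2 was the one member that rose in both sexes. It encodes the testis-type paralogue of Cox6b1. Its level was 116, 117 and 76.8 FPKM in FC and 216, 207 and 234 in FIR, and 103, 86.1 and 85.1 in MC and 145, 181 and 172 in MIR. In each sex every library of the irradiation code lay above every control-coded library. The log2 difference was 1.10 ± 0.15 (SE) in females, with an adjusted p of 0.000206 in limma, and 0.85 ± 0.15 in males, with an adjusted p of 0.000529. The female and male differences were not shown to differ (0.25 ± 0.21, adjusted p 0.524 in limma). At E11.5 Cox6b2 measured 95.5, 116 and 131 FPKM in noIR and 114 and 127 in IR, which overlap.

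At E13.5 Cox6b1 moved less, so the balance of the pair shifted. Its E13.5 group means were 305 ± 8.09 FPKM in FC, 356 ± 34.7 in FIR, 336 ± 30.2 in MC and 344 ± 22.9 in MIR, and neither difference passed (adjusted p 0.084 and 0.791 in limma). Cox6b2 made up 25.1 ± 3.88% of the pair's FPKM in FC and 38.2 ± 1.17% in FIR, and 21.4 ± 1.29% in MC and 32.5 ± 3.14% in MIR. The share at E11.5 was 14.1 ± 1.25% in noIR and 19.6 ± 0.652% in IR. On each day and in each sex the libraries of the irradiation code had higher shares than all their controls. At E11.5, unlike at E13.5, the higher share came with a lower Cox6b1 (log2 difference -0.48) and a nearly level Cox6b2 (0.09). Neither of these E11.5 differences passed. The Cox6b2 calls held under every alternative but the somatic marker covariate. With that covariate, 24 genes were called higher and 2 lower of all genes in females, and 21 higher and 2 lower in males.

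**Figure D4:**
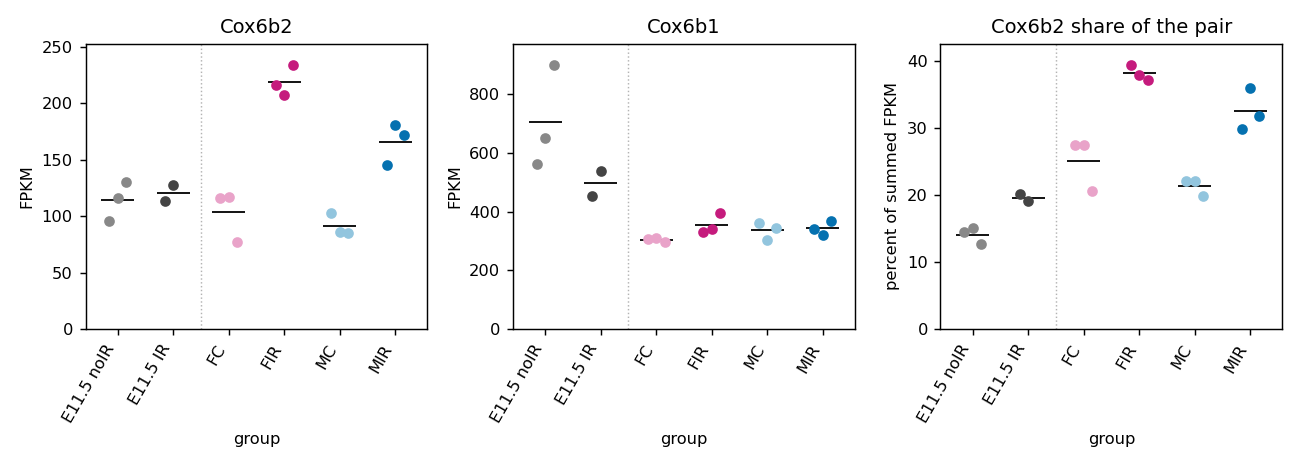
FPKM of Cox6b2 and of Cox6b1 and the Cox6b2 share of their sum in percent (y axes, starting at 0) in each library, by group (x axes); points are libraries, bars are group means and the dotted line separates the days. Cox6b2 stands at 207 to 234 in FIR against 76.8 to 117 in FC, while Cox6b1 ranges from 295 to 396 over the same libraries.

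The promoters of the pair are shown because Cox6b2 passed the test at E13.5 and Cox6b1 did not. The sequences are the 250 bases before the annotated start, from RefSeq on GRCm38.p6, both from the minus strand of chromosome 7, at chr7:30626115-30626364 for Cox6b1 and chr7:4753095-4753344 for Cox6b2. The motifs searched on both strands were an NRF1 consensus, CCGGAAG (ETS, the family of GABP) and AAGATGG (YY1). NRF1, GABP and YY1 are transcription factors known to act on many respiratory chain genes. Capitals mark a match, here CTTCCGG, the ETS letters read from the other strand, and Cox6b2 has no match in the window. Each motif was searched on its own, so matches of different motifs may overlap.
Cox6b1: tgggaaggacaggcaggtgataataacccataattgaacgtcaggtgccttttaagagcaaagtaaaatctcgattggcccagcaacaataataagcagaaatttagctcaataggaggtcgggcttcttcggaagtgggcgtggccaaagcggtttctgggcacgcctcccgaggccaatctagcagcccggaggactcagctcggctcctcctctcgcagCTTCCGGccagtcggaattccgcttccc
Cox6b2: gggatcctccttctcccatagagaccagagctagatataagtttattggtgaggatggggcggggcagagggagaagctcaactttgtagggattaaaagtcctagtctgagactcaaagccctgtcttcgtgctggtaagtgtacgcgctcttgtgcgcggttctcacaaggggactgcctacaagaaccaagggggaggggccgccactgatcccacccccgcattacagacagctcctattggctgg

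Promoter windows of 300 bases (250 before and 50 after the start) were found for 53 of the 67 members. The NRF1 consensus stood in 11 of 53 (20.8%), against 11.8% of 9282 protein-coding genes tested at E13.5 and 5.19% of 27018 genes with a window. The ETS letters stood in 11 members (20.8%), near the 20.1% of the protein-coding genes tested. The YY1 letters stood in 8 members (15.1%) against 8.38%. Among the 51 members with a window that were tested at E13.5, the matches were 10 (19.6%) for NRF1, 11 (21.6%) for ETS and 8 (15.7%) for YY1. A match describes letters in the window and not a bound site.

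Complex II, the smallest complex, is encoded wholly by the 4 Sdh genes. Sdha fell in both sexes. Its level was 174, 171 and 168 FPKM in FC and 112, 140 and 147 in FIR, without overlap, a log2 difference of -0.37 ± 0.11 (adjusted p 0.0147 in limma). In males it was 155, 186 and 170 FPKM in MC and 131, 133 and 148 in MIR, also without overlap, a difference of -0.30 ± 0.11 (adjusted p 0.0283 in limma). Without FIR replicate 1 the female value was -0.26 and no longer called. The male call was lost without MC replicate 2 or 3 or without MIR replicate 1 or 2. Quantile normalization ended both calls, at -0.21 in females and -0.08 in males.

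The iron-sulfur subunit Sdhb fell in males, from 125, 111 and 129 FPKM in MC to 85.8, 93.0 and 94.2 in MIR, a log2 difference of -0.41 ± 0.10 (adjusted p 0.00375 in limma). In females Sdhb overlapped between groups, with 117, 126 and 128 FPKM in FC and 105, 135 and 124 in FIR. The membrane anchors Sdhc and Sdhd did not pass in either sex, with log2 differences between -0.12 and 0.01. Sdhc averaged 89.5 ± 8.79 FPKM in FC, 95.7 ± 5.54 in MC and 88.2 ± 6.94 in MIR, and lay between 86.9 and 93.8 in FIR. Differences between the subunits of complex II were not tested. The Sdha promoter is shown because it held the NRF1 consensus in 3 places, marked in capitals, in the 250 bases before the start on the minus strand at chr13:74350241-74350490.
Sdha: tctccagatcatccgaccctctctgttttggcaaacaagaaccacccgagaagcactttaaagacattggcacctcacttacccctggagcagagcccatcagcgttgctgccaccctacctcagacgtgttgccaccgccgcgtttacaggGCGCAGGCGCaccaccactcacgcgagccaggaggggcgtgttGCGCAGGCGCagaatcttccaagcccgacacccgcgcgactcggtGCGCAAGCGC

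In male germ cells, more members differed between MIR and MC, and nearly all of these were lower in MIR. The falls were led by Cox8c, Ndufs7, Cox5a, Ndufa4l2, Ndufv1 and Cox7c, and the only rises were Cox6b2 and Ndufa1. In all, 23 of 63 members were called, 2 higher and 21 lower, where 59.7% of genes were called, 28.7% higher and 31% lower. The groups did not overlap in 28 members, against 64.9% of genes, with 4 higher (30.4% of genes) and 24 lower (34.5% of genes). Before adjustment, 25 members had a p under 0.05, against 64.2% of genes. The share of members called lower was near the background, and the share called higher was below it. The median log2 difference was -0.20 against -0.04 over all genes, and 13 of 63 members lay above 0. As a share of all FPKM the summed members overlapped, at 2.2% to 2.28% in MIR and 2.06% to 2.33% in MC. By complex, 1 rose and 14 fell of 36 in complex I, 0 and 2 of 4 in complex II, 0 and 2 of 8 in complex III, and 1 and 3 of 15 in complex IV. The complex medians ran from -0.16 in complex I to -0.24 in complex III.

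The split between rises and falls in males also depended on scaling. Quantile normalization gave 14 higher and 7 lower with a median of 0.02, while median scaling gave 1 higher and 34 lower with a median of -0.36. The median over all genes was itself -0.16 and -0.20 under these settings, so the members stood 0.18 above it with quantile normalization and 0.15 below it with median scaling. Without MC replicate 1 there were 1 higher and 8 lower, without MC replicate 3 there were 2 and 7, without MIR replicate 1 there were 1 and 9, and without MIR replicate 3 there were 1 and 12.

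Core subunits of complex I, among them those that carry its flavin and iron-sulfur clusters, accounted for several of the male falls. Ndufs7, which holds the last iron-sulfur cluster before ubiquinone, measured 120, 88.6 and 97.7 FPKM in MC and 48.5, 61.6 and 64.4 in MIR, a log2 difference of -0.80 ± 0.16 (adjusted p 0.00101 in limma). Ndufv1, the flavin-binding subunit where NADH is oxidized, measured 125, 120 and 140 in MC and 78.4, 92.8 and 86.7 in MIR, a difference of -0.57 ± 0.11 (adjusted p 0.00102 in limma). Ndufs1, the largest subunit with iron-sulfur clusters, measured 133, 144 and 147 in MC and 91.6, 115.3 and 99.9 in MIR, a difference of -0.47 ± 0.12 (adjusted p 0.00421 in limma). In none of these did the groups overlap. The calls for Ndufs7, Ndufv1 and Ndufs1 in males held under every alternative but the somatic covariate. With that covariate they were lost and their sign turned, to 0.78, 0.18 and 0.03, and the median of the members in males was 0.87. Somatic marker levels differed strongly between MC and MIR, so that fit could hardly separate them from the codes. With it, 21 genes were higher and 2 lower of all genes in males. The turned signs therefore cannot be read as rises.

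Ndufs1 was the other member that fell in both sexes, with 128, 129 and 137 FPKM in FC and 88.2, 113 and 119 in FIR. Its female log2 difference of -0.31 ± 0.12 lay near the threshold (adjusted p 0.0476 in limma), and 14 of 23 alternatives ended that call, among them leaving out any FC library, FIR replicate 1 or 2, any MC library or MIR replicate 3. Other core subunits changed less in males. Ndufv2 fell by 0.27 and Ndufs3 by 0.23 on the log2 scale, with adjusted p of 0.0361 and 0.0458 in limma. Leaving out any MC library or MIR replicate 1 or 3 ended both calls. The Ndufs3 call was lost under 12 of 23 alternatives, also without any FC library, FIR replicate 2 or MIR replicate 2. The Ndufs8 difference of -0.14 did not pass (adjusted p 0.294 in limma). In females Ndufs7, Ndufv1, Ndufv2, Ndufs3 and Ndufs8 did not pass, although the Ndufs8 libraries did not overlap (43.8, 49.6 and 48.2 FPKM in FC and 56.9, 59.8 and 55.7 in FIR; adjusted p 0.059 in limma).

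Besides core subunits, the Nduf genes called in males were Ndufa2, Ndufa6, Ndufa7, Ndufa10, Ndufa4l2, Ndufb9, Ndufs6 and Ndufv3 among the falls and Ndufa1 among the rises. Ndufa4l2, like Ndufa4, is counted with complex I here by its symbol only. Ndufs6, which binds zinc and is needed late in assembly, measured 288, 223 and 244 FPKM in MC and 168, 187 and 194 in MIR. Ndufa7 measured 429, 307 and 422 in MC and 256, 301 and 291 in MIR. Ndufa1, an X-linked membrane arm subunit, measured 76.9, 67.9 and 91.0 in MC and 111, 94.1 and 112 in MIR, and its log2 difference of 0.43 ± 0.15 had an adjusted p of 0.0293 in limma. That call was lost without MC replicate 1 or 2 or MIR replicate 1 or 3. Ndufa4l2, a paralogue of Ndufa4 known from hypoxia, was low, at 1.05 to 1.81 FPKM in MC and 0.254 to 0.780 in MIR, and its call was lost without FC replicate 1, MC replicate 1 or 2, or MIR replicate 1 or 2.

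In complexes III and IV the male falls were fewer. Cox5a, a matrix-side subunit of complex IV, measured 593, 546 and 546 FPKM in MC and 301, 416 and 361 in MIR, without overlap, a log2 difference of -0.65 ± 0.16 (adjusted p 0.00354 in limma). Cox7c fell from 1371, 1109 and 1291 to 774, 1003 and 913, a difference of -0.49 ± 0.16 (adjusted p 0.0185 in limma) that was lost without MC replicate 1 or 3 or MIR replicate 1. Cox8c, a testis-type paralogue of Cox8a, stood at 4.05, 2.10 and 7.03 FPKM in MC and 2.13, 2.16 and 0.726 in MIR. Its groups overlapped, and its call was lost without MC replicate 1, MC replicate 3 or MIR replicate 3. The core protein Uqcrc1 and the small subunit Uqcr11 of complex III fell by 0.36 and 0.42 on the log2 scale. The Uqcrc1 call was lost without any MC library and without MIR replicate 1 or 3. The Rieske protein Uqcrfs1 had a difference of -0.20 that did not pass (adjusted p 0.0717 in limma).

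Among the remaining female calls, Ndufa3 measured 192, 203 and 171 FPKM in FC and 233, 250.4 and 287 in FIR, a log2 difference of 0.44 ± 0.11 (adjusted p 0.00651 in limma). Uqcr10, a small subunit of complex III, measured 205, 218 and 203 in FC and 253, 262 and 265 in FIR. Cox7a2l, a factor that joins complexes III and IV into supercomplexes, measured 173, 196 and 201 in FC and 217, 241 and 224 in FIR. The core protein Uqcrc2 measured 210, 213 and 222 in FC and 167, 183 and 177 in FIR, a difference of -0.29 ± 0.07 (adjusted p 0.00554 in limma). None of these 4 overlapped between groups. No female call held with the somatic marker covariate, and the Uqcrc2 call was also lost with quantile normalization. The calls for Uqcr10, Ndufa4 and Cox7a2l were lost with median scaling, with the length trend removed and without FC replicate 1, and those for Uqcr10 also without FC replicate 3, for Ndufa4 and Cox7a2l without FC replicate 2 or FIR replicate 2, and for Ndufa4 without FIR replicate 3.

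Whether the female and male differences themselves differ was tested directly as (FIR minus FC) minus (MIR minus MC), and 1 of 63 members passed, where 7.77% of genes did (2.81% higher and 4.96% lower). Ndufv3, an accessory subunit next to the flavin-binding tip of complex I, measured 90.2, 98.7 and 89.3 FPKM in FC and 98.1, 102 and 105 in FIR, but 121, 120 and 125 in MC and 89.5, 95.3 and 92.9 in MIR. The female difference was 0.14 ± 0.07 (adjusted p 0.151 in limma), the male difference -0.39 ± 0.07 (adjusted p 0.000706) and the difference between them 0.53 ± 0.10 (adjusted p 0.00985). All FIR libraries lay above FC replicates 1 and 3 but not all above replicate 2, while all MIR libraries lay below all MC libraries. Of the members, 55 of 63 had a value above 0, with a median of 0.20 against 0.02 over all genes. Without FIR replicate 1 the median was 0.33 and 11 members were called, all higher. The median was 0.11 without FIR replicate 3, 0.08 with the length trend removed (0.04 over all genes) and 0.09 with the somatic covariate. Without MC replicate 2, 4 members were called, and without MIR replicate 2, 2 members. Before adjustment, 12 members had a p under 0.05, against 23.7% of genes.

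Female and male germ cells without the irradiation code were compared as FC minus MC. The same MC libraries enter MIR minus MC, so calls in both comparisons, such as Ndufv3 and Ndufa7, are not independent. Cox7a1, Ndufa1, Cox7b, Ndufb11, Uqcrc2 and Ndufb4 were higher in FC, and Uqcrq, Ndufa7, Ndufs8, Uqcrfs1, Ndufv3 and Ndufb10 were lower. The Ndufb4 call was lost without FC replicate 2 or 3 or MC replicate 2 or 3, and the Ndufa7 call without FC replicate 1 or MC replicate 1 or 3. The Ndufb10 call was lost under 10 of 23 alternatives, among them leaving out any FC library, FIR replicate 2, MC replicate 1 or 3, or MIR replicate 3. These 12 of 63 members compare with 34.9% of genes, 16.1% higher and 18.8% lower. The groups did not overlap in 22 members, against 59.8% of genes, with 11 higher (28.5% of genes) and 11 lower (31.3% of genes), and before adjustment 16 members had a p under 0.05, against 44.4% of genes. Of the 8 Sertoli markers, 5 were lower in FC, and their part in these differences was not tested. The median log2 difference of 0.02 was close to the -0.02 of all genes. Under the titles of the male libraries, MC would be irradiated and the same values would compare untreated females with irradiated males.

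All 3 members on the X chromosome were higher in FC. As background, the silenced X chromosome of female germ cells is known to become active again around this stage. Ndufa1 measured 146, 161 and 156 FPKM in FC and 76.9, 67.9 and 91.0 in MC, a log2 difference of 0.97 ± 0.15 (adjusted p 0.000468 in limma). Cox7b, a small subunit of complex IV, measured 250, 244 and 244 in FC and 173, 144 and 147 in MC (0.67 ± 0.12, adjusted p 0.00119 in limma). Ndufb11, a membrane arm subunit, measured 180.3, 192 and 185 in FC and 119, 110 and 127 in MC (0.64 ± 0.13, adjusted p 0.00193 in limma). Over the whole X chromosome, 45.8% of 476 genes tested were higher in FC and 4.2% lower, with a median of 0.45. Autosomal genes were higher in 14.9% and lower in 19.7% of 11442, and among the 60 autosomal members 3 were higher and 6 lower. These 3 X-linked calls held under every alternative.

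**Figure D5:**
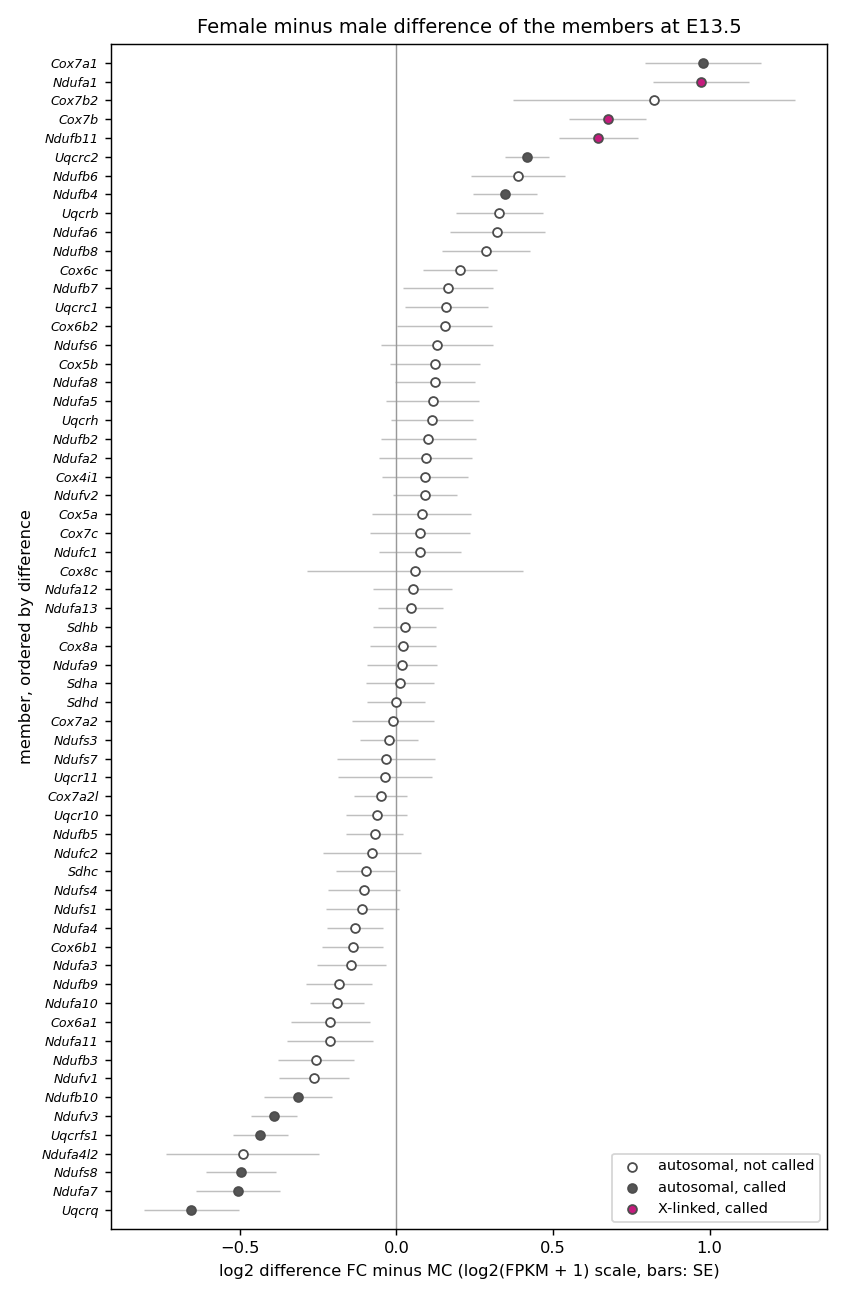
Log2 difference FC minus MC on the log2(FPKM + 1) scale (x axis) for members tested at E13.5 (y axis, ordered by difference); bars are standard errors, filled points passed an adjusted p of 0.05 in limma and coloured points are X-linked. The X-linked Ndufa1, Cox7b and Ndufb11 stand at 0.97, 0.67 and 0.64, next to the autosomal Cox7a1 at 0.98, and Uqcrq stands lowest at -0.66.

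Among the autosomal members Cox7a1, the muscle-type paralogue of Cox7a2, had the largest difference, at 158, 189 and 177 FPKM in FC and 94.8, 75.5 and 94.6 in MC (0.98 ± 0.19, adjusted p 0.00161 in limma). Cox7a2 itself was level between the sexes, with 351 ± 13.1 FPKM in FC and 355 ± 41.4 in MC. Cox7a1 made up 33.2 ± 1.23% of the pair in FC and 30.8 ± 3.24% in FIR, against 19.9 ± 1.87% in MC and 18.9 ± 0.692% in MIR. The female and male shares did not overlap with either code. Uqcrq, a small subunit of complex III, was lower in females, at 105, 104 and 111 FPKM in FC and 212, 129 and 175 in MC (-0.66 ± 0.15, adjusted p 0.00544 in limma). Uqcrfs1 measured 94.1, 87.2 and 82.3 in FC and 127, 107 and 124 in MC (-0.44 ± 0.09, adjusted p 0.00231 in limma). Ndufs8, another core iron-sulfur subunit, measured 43.8, 49.6 and 48.2 in FC and 74.3, 57.6 and 69.9 in MC (-0.50 ± 0.11, adjusted p 0.00475 in limma). None of these groups overlapped.

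Other paralogues known from specialised tissues contributed little. Cox7b2 averaged 11.7 ± 1.13 FPKM in FC, 6.76 ± 0.681 in FIR, 7.17 ± 4.62 in MC and 5.37 ± 3.90 in MIR, between 2.93% and 4.55% of the pair with Cox7b at E13.5. Its libraries were higher in FC than in FIR without overlap, but its difference of -0.71 ± 0.45 did not pass (adjusted p 0.213 in limma). Cox8c made up 0.63% to 1.85% of its sum with Cox8a in the E13.5 groups. Cox4i2 stayed at or under 0.0665% of its sum with Cox4i1 as a group mean, and was listed at 0 in the 3 MC libraries. Cox4i1, the main form, stood at 855 ± 30.4 FPKM in FC, 863 ± 131 in FIR, 807 ± 113 in MC and 666 ± 73.7 in MIR, with no call.

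Genes that work with the respiratory chain were read in the same fit. Shares of all genes called, to be set beside each list, were 22.9% lower and 21.8% higher in females and 31% lower and 28.7% higher in males. Of 14 nuclear regulators of mitochondrial genes, 8 were lower and 1 higher in females and 10 lower and 1 higher in males. Their medians of -0.31 and -0.44 compare with -0.03 and -0.04 over all genes. Pprc1, a coactivator of the PGC-1 family, averaged 32.0 FPKM in FC and 13.8 in FIR, and 45.5 in MC and 18.6 in MIR, with log2 differences of -1.16 ± 0.16 and -1.25 ± 0.16. Gabpa, the DNA-binding subunit of GABP, fell by 0.67 in females and 0.54 in males, and Nrf1 by 0.59 and 0.56. In adjusted p these 6 values ranged from 5.26e-05 to 0.000888 in limma. Twnk (listed as Peo1), the mitochondrial DNA helicase, fell by 0.62 in males.

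Mitochondrial ribosomal proteins belong to the ribosome that makes the mitochondrially encoded subunits. Of 76, 41 were lower and 3 higher in MIR, with a median of -0.33, against 31% and 28.7% of genes. In FIR 8 were lower and 3 higher, with a median of -0.09, fewer than the 22.9% and 21.8% of genes. In the test of the difference between the sexes 1 of the 76 passed. Mrpl23 averaged 188 FPKM in MC and 95.6 in MIR (-0.97 ± 0.12) against 180 in FC and 161 in FIR, and its difference between the sexes passed (0.81 ± 0.17, adjusted p 0.0133 in limma). Mrps18b fell in both sexes, by 0.55 and 0.90. In the tricarboxylic acid cycle and pyruvate dehydrogenase list of 16 genes, 7 were lower and 1 higher in females and 9 lower and 1 higher in males, against 22.9% and 21.8% of genes in females and 31% and 28.7% in males. Pdha1, of pyruvate dehydrogenase, averaged 142 FPKM in FC, 93.6 in FIR, 107 in MC and 56.5 in MIR.

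Assembly factors went in both directions. Of 18 complex I assembly factors, 5 were lower and 3 higher in females, near the 22.9% and 21.8% of genes, and 11 lower and 3 higher in males, against 31% and 28.7%. Ndufaf6 averaged 33.3 FPKM in MC and 14.0 in MIR (-1.21 ± 0.13) and fell by 0.50 in females, and the 2 changes differed (0.71 ± 0.18, adjusted p 0.0335 in limma). Acad9, which is also related to fatty acid dehydrogenases, rose by 0.50 and 0.62. Of 4 complex II assembly factors, 2 were higher and 0 lower in each sex, where 21.8% of genes were higher in females and 28.7% in males. Sdhaf1 rose from 4.52 to 13.7 FPKM in females and from 6.78 to 15.1 in males (1.40 ± 0.21 and 1.03 ± 0.21). Sdhaf3 (listed as Acn9) rose by 0.54 and 0.89. Of 6 complex III assembly factors, 1 was higher and 0 lower in females, and 1 higher and 2 lower in males, beside the same shares of genes. Of 25 complex IV assembly factors, 7 were higher and 3 lower in females, against 21.8% and 22.9% of genes, and 5 higher and 5 lower in males, against 28.7% and 31%. Cox20 averaged 33.4 FPKM in FC and 76.4 in FIR, and Coa4 5.67 in MC and 13.0 in MIR.

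ATP synthase, which uses the proton gradient, had 1 gene of its list higher and 2 lower of 18 in females and 1 higher and 4 lower in males, shares below the 22.9% and 31% of genes called lower. The catalytic subunit Atp5b averaged 1199 FPKM in FC and 900 in FIR (-0.43 ± 0.14), and 1665 in MC and 1116 in MIR (-0.59 ± 0.14). Atpif1, the inhibitor of the synthase, averaged 236 FPKM in FC and 351 in FIR (0.57 ± 0.11). Of the electron carriers and subunits outside the symbol rule, cytochrome c1 (Cyc1) fell in males, from 153 to 108 FPKM. At E11.5 none of the members of these lists was called.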

How the data were processed

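RNA sequencing libraries had been made from total RNA after removal of ribosomal RNA by hybridization, with the NEBNext Ultra II kit, per the labels' protocols. The values used are FPKM computed by the authors and deposited in 1 table per embryonic day. The submitters' processing notes name mm10 and DESeq2. The aligner, counting program, strand setting and annotation were not given in the sources used here. No column was left without a sample, and no library pair shared over 90% of its values. Groups follow the sample codes (description), because male titles and conditions conflict with them. The cell type entry of FIR replicate 1 reads E11.5, against its title, source and table.

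Because FPKM are not counts, limma 3.58.1 (limma-trend, R 4.3.3) was run on log2(FPKM + 1), whose pseudocount of 1 understates changes of low genes. Genes were tested where 2 (E11.5) or 3 (E13.5) libraries reached an FPKM of 1, with Benjamini-Hochberg adjustment over all genes, two-sided. The 4 groups at E13.5 shared 1 fit. Depth was estimated from the spacing of FPKM under 0.12 in single-transcript genes of at least 1500 bases, and covers counting error only. Transcript lengths are from GENCODE M21, gene coordinates from RefSeq, and promoters from RefSeq on GRCm38.p6. Python 3.11.15, numpy 2.4.6, pandas 2.3.3 and matplotlib 3.10.9 served for tables and figures. The pipeline was tested on simulated data.

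Named members were the called members with the largest differences (up to 6 a direction), the highest member per complex, the Sdh genes, paralogue pairs and core subunits, and up to 4 called genes per pathway list. Ndufs5, Ndufs6, Ndufa7 and Uqcr11 fall outside this rule and were chosen after their values were seen. A core subunit within the rule stays in all counts and sums but is not reported singly here. Members and lists were chosen with earlier results of these data known. Alternatives tried were quantile normalization, median scaling, removal of the length trend, library weights, the replicate number as a block, only the groups compared, a somatic marker covariate leaving out each library, other pseudocounts (0.5 or 0.1), and a stricter filter (FPKM of 5) or none.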

Additional observations from a re-analysis of the deposited data

Results flagged for a closer look

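Ndufv3, an accessory subunit of complex I, was the only member whose female and male differences between the irradiation and control codes differed in the test of that difference itself. The value was 0.53 ± 0.10 on the log2(FPKM + 1) scale (limma, adjusted p 0.00985), with a female difference of 0.14 and a male difference of -0.39, and all 3 MIR libraries lay below all 3 MC libraries. It ranged from 0.46 to 0.62 and stayed called under every alternative. FC was also lower than MC for this gene (-0.39 ± 0.07), so the female and male control levels differ before any change. Mean levels were 92.7 FPKM in FC, 102 in FIR and 92.5 in MIR, against 122 in MC. The same MC libraries enter the male difference, FC minus MC and the difference of changes, so these 3 results are not independent. If the male titles rather than the codes were right, the male difference would be 0.39 with MC as the irradiated group, and the value of 0.53 would not be a difference of irradiation changes. The difference with the male sign turned was not tested. No group has more than 3 libraries, so Dixon's test for a single far sample was not applied.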

How the results depend on the processing

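The call counts depended on scaling and on single libraries more than on the pseudocount or filter. In females 8 members were called, 21 with quantile normalization, 4 with median scaling, 13 without the length trend, 31 with library weights and 0 with the somatic covariate; leaving out 1 library gave 4 to 10. In males 23 were called, 35 with median scaling and 0 with the covariate, and leaving out 1 library gave 9 to 30. Between the sexes 12 were called, 37 with library weights, 20 with only the groups compared, and 9 to 18 without 1 library. In the difference of changes 1 was called, 3 with quantile normalization, 2 without the length trend, 26 with library weights, and 1 to 11 without 1 library. At E11.5 the count was 0 under every alternative. The cause was not tested. With the covariate, Ndufs1 in females read 0.13, and in males Cox8c 1.35, Ndufs7 0.78, Cox5a 0.71, Ndufa4l2 1.41, Ndufv1 0.18, Cox7c 1.10, Sdhb 0.30, Ndufs1 0.0333, Ndufs3 0.0739, Ndufv2 0.39 and Uqcrc1 0.83. Such values cannot be read as rises, because somatic marker levels largely followed the irradiation codes. Of the other named values under alternatives, 2942 stayed on the same side of the threshold, 84 gained a call and the rest lost one. For values without a call before the change of setting, a change of sign was not counted separately. Too few libraries were present to decide whether replicate numbers pair the samples. Same-numbered E13.5 libraries correlated between -0.218 and -0.0204, and differently numbered ones between -0.0922 and 0.216. The E11.5 pairs, fewer than 3, correlated at 0.156 and 0.246, against 0.071 or less for differently numbered libraries. With only 2 IR libraries, deviations from their group mean mirror each other, so the E11.5 values cannot decide on pairing. The block moved the E11.5 median of the members from -0.17 to -0.03. That is the median without noIR replicate 3, which has no same-numbered IR library, so the shift does not bear on pairing. With the replicate block 8, 23, 12, 1 and 0 members were called in the female, male, sex, difference and E11.5 comparisons. At E11.5, 2 irradiated libraries limit what can be called. Fitting only the groups compared was not applied to E11.5, whose fit holds only those groups, or to the difference of changes.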
